A study of Danio rerio with 9 samples.

Results

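This report describes 41 zebrafish transcripts that were abundant in adult heart and adult muscle and close to or at 0 in the embryonic heart. They were chosen from 103079 assembled transcripts. Each member had an FPKM value (the number of sequenced fragments scaled to transcript length and library size) above 10 in all 3 adult heart samples and all 3 adult muscle samples, and below 0.5 in all 3 embryonic heart samples. The 813 lincRNAs (long intergenic noncoding RNAs) listed for heart were left out, and 0 of them met the thresholds. The members were chosen with the FPKM values of all 9 samples, so their difference between adult tissues and embryonic heart is a description and was not tested.

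RNA from wild-type zebrafish of the WIK strain was measured by RNA-seq in 3 tissue types with 3 samples each. The groups were adult heart at 6 months, adult muscle from fish labelled only as adult, and embryonic heart at 4 days post fertilization. No group carried a transgene, a deletion or a treatment. The samples were whole tissues, so fewer cells of a type and less RNA per cell cannot be told apart, and the muscle has no embryonic counterpart in the series. The labels do not say whether samples of a group came from different fish or pools of fish, so p-values measure only the spread between these samples.

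In vertebrates, striated muscle and blood mature by replacing embryonic forms of many proteins with adult forms. Contractile proteins of heart and skeletal muscle and the hemoglobins of red blood cells are the textbook cases, and the embryonic and adult forms are often encoded by genes of the same family that lie side by side. Whole heart and muscle also contain blood, vessels, connective tissue, nerve and immune cells. The members carry identifiers of the assembly without gene names, and 0 identifiers matched the gene tables used here. None of them is therefore assigned to any of these families, the identity of the tissues could not be checked against marker genes, and no sequence is shown.

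The thresholds picked a small group. Of the 2615 transcripts above 10 FPKM in all 6 adult samples, the 41 members made up 1.57%. Another 8 transcripts (0.306%) had a highest embryonic value from 0.5 to below 1 FPKM, 270 (10.3%) from 1 to below 10 FPKM, and 2296 (87.8%) of at least 10 FPKM. Thus few abundant adult transcripts lay just above the embryonic limit. The mirror-image rule, above 10 FPKM in all 3 embryonic heart samples and below 0.5 FPKM in all 6 adult samples, found 30 transcripts. All 41 members passed the filter on low values that preceded the test of adult heart against adult muscle.

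Replicates of a tissue were more alike than samples of different tissues. Pearson's r across transcripts, on the log2 scale and as a description only, was 0.857 to 0.886 among the adult heart samples, 0.858 to 0.871 among the adult muscle samples, and 0.798 to 0.806 among the embryonic heart samples. The summed FPKM was 2785610 to 3191280 in adult heart and 3139180 to 4644360 in adult muscle, and it was 4493740, 14481800 and 19187400 in embryonic heart replicates 0, 1 and 2. The 10 highest entries held 64.2 to 74.7% of this sum in the adult samples and 84.2 to 95.3% in the embryonic samples. The number of reads behind each value is unknown. A rough relative depth came from transcripts below 0.1 FPKM, as the most common ratio of a sample to adult heart replicate 0. Read as the relative worth of 1 fragment, which was not tested, this ratio was 0.655 to 1 in adult heart. It was 0.927 to 1.24 in adult muscle and 0.865 to 1.09 in embryonic heart. By this ratio alone no tissue was uniformly shallower than the others. Transcripts above the limit used for this ratio were fewer in every embryonic sample (42568 to 43210) than in every adult sample (47079 to 50347). Whether this reflects depth or tissue was not tested.

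In embryonic heart, 19 of the 41 members (46.3%) were listed at 0 in all 3 samples. Of the other 22, 3 were listed at 0 in 2 samples, 1 in 1 sample, and 18 were above 0 in each. Among these 22, the highest embryonic value was below 0.1 FPKM for 9 and from 0.1 to 0.5 FPKM for 13, with a median of 0.311 FPKM. In 4 of the 9 it stayed below 0.01 FPKM, which in practice does not separate them from the 19 listed at 0.

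**Figure D1:**
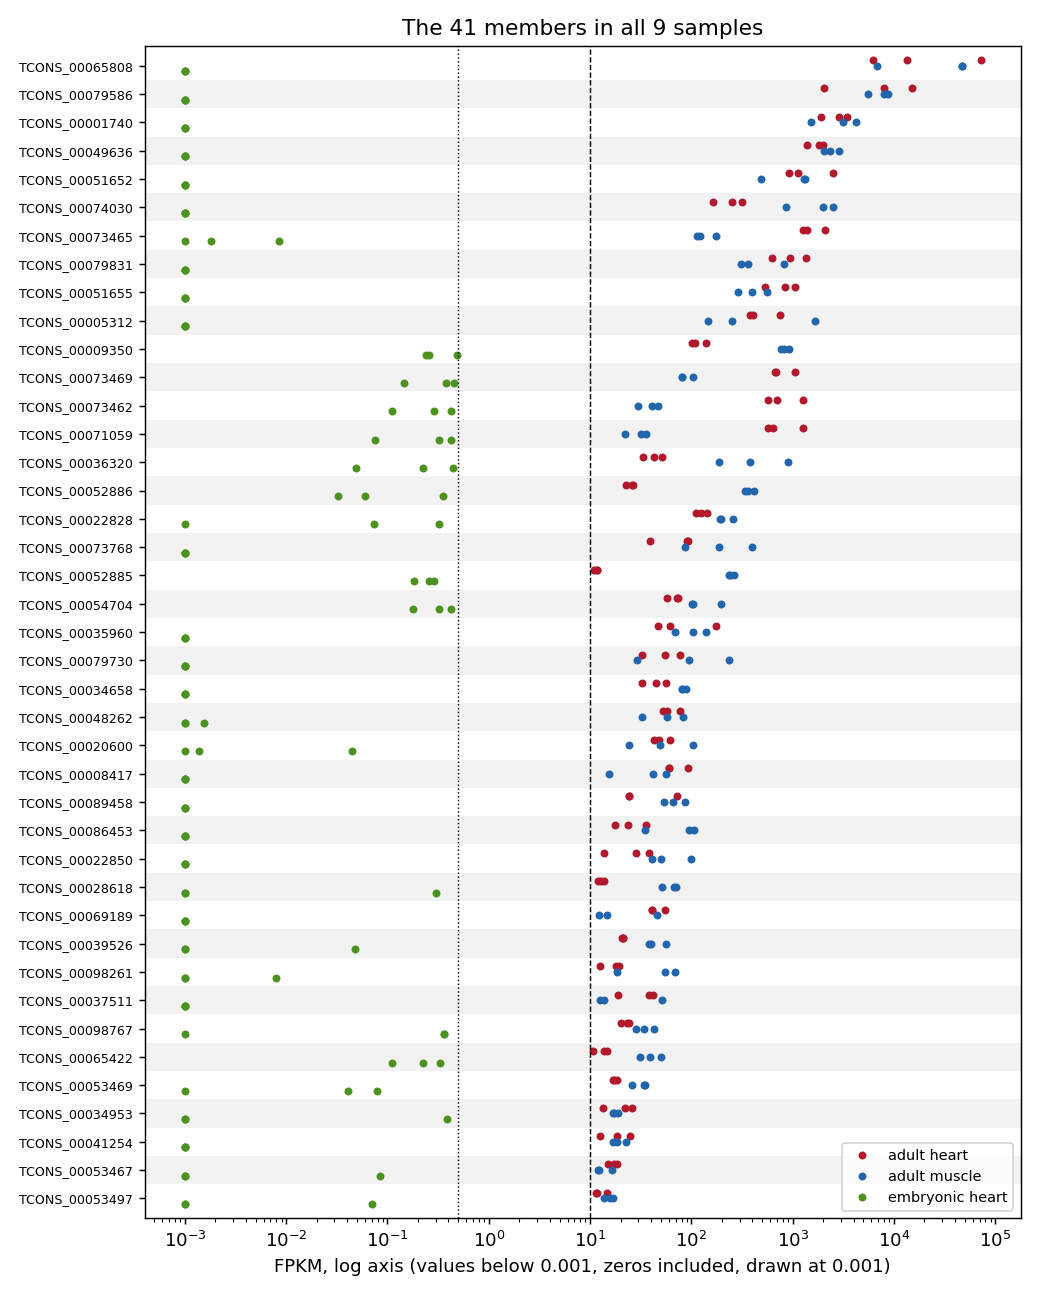
Each row is 1 of the 41 members, ordered by the mean of its 6 adult samples, and each point is 1 sample on a log axis of FPKM (red, adult heart; blue, adult muscle; green, embryonic heart). The dashed and dotted lines mark 10 and 0.5 FPKM, and values below 0.001, zeros included, are drawn at 0.001. The 6 members with an adult mean above 1000 FPKM sit at the top with all embryonic points at 0.

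A listing at 0 is not proof of absence in this table, because zeros also occurred beside high values within a tissue. Of the transcripts above 100 FPKM in at least 1 sample of a tissue, 79 of 929 (8.50%) in adult heart, 75 of 1004 (7.47%) in adult muscle and 121 of 758 (16.0%) in embryonic heart were listed at 0 in another sample of the same tissue. TCONS_00079731, the next number after the member TCONS_00079730, shows this pattern. It had 33478 and 13673 FPKM in embryonic heart replicates 0 and 1 and was listed at 0 in replicate 2. Single zeros were also counted among transcripts above 10 FPKM in the other 8 samples. They numbered 0 to 1 of 2007 to 2019 in the adult heart samples and 1 to 3 of 2022 to 2049 in the adult muscle samples. In embryonic heart replicates 0, 1 and 2 they numbered 3 of 2051, 5 of 2053 and 12 of 2075. Single zeros were thus far rarer here than in the first set, which needed only 1 high sample. These counts cover transcripts at 0 in some but not all samples of a tissue, and give no rate for zeros in every sample of it. What share of the 19 members listed at 0 reflects such listings was not tested.

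The members covered a wide range of adult levels. The median of their mean FPKM was 54.9 in adult heart (range 11.4 to 30514) and 83.2 in adult muscle (range 13.6 to 33562). For the 2574 other transcripts above 10 FPKM in all adult samples, the medians were 32.2 FPKM in adult heart, 35.6 FPKM in adult muscle and 29.0 FPKM in embryonic heart. The mean over the 6 adult samples was above 100 FPKM for 20 members, above 1000 FPKM for 6, and below 50 FPKM for 13. All 6 members above 1000 FPKM were among the 19 listed at 0 in embryonic heart.

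TCONS_00065808 was the most abundant member. It had 6178, 71830 and 13534 FPKM in adult heart replicates 0, 1 and 2 and 46680, 6874 and 47133 FPKM in adult muscle replicates 0, 1 and 2, and it was listed at 0 in every embryonic sample. The adult samples thus differed up to 11.6-fold within a tissue, and the tissues overlapped. TCONS_00079586 followed, with 2054, 7946 and 15193 FPKM in adult heart, 7883, 8634 and 5524 FPKM in adult muscle, and 0 in embryonic heart. Its 3 muscle values lay within the range of its heart values.

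TCONS_00001740 had 3416, 1922 and 2838 FPKM in adult heart, 3169, 4201 and 1504 FPKM in adult muscle, and 0 in embryonic heart. TCONS_00049636 was the steadiest of the most abundant members. It had 1812, 2000 and 1386 FPKM in adult heart and 2324, 2059 and 2845 FPKM in adult muscle, and was listed at 0 in embryonic heart. Every muscle sample lay above every heart sample, but the difference did not pass the test described below (log2 fold change -0.48, SE 0.18, Benjamini-Hochberg adjusted p = 0.0915 from limma).

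TCONS_00051652 had 2509, 1137 and 923 FPKM in adult heart and 487, 1304 and 1312 FPKM in adult muscle, and TCONS_00079831 had 629, 1354 and 932 FPKM in adult heart and 819, 307 and 359 FPKM in adult muscle. Both overlapped between the adult tissues, and both were listed at 0 in embryonic heart. Entries with numbers close to TCONS_00051652 showed on and off listings within a tissue. TCONS_00051649 had 4303, 983 and 929 FPKM in adult heart and 0, 1415 and 0 FPKM in adult muscle, and TCONS_00051651 had 177 FPKM in adult heart replicate 1 and was listed at 0 in the other 8 samples. Among the 368 non-member entries within 5 numbers of a member, 5 exceeded 100 FPKM in 1 sample of a tissue and were at 0 in another, and these 5 lay beside 5 members.

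Whether 1 fragment was worth a large FPKM for such entries was not tested. TCONS_00051653, next in number to TCONS_00051652, and TCONS_00049639, close to TCONS_00049636, both had 47.9 FPKM in adult muscle replicate 0. In adult heart replicate 1 they had 68.9 and 34.4 FPKM, a ratio of 2. This pair was picked after its values were seen and does not show what 1 fragment was worth. Transcript lengths are not part of the values, so the number of fragments behind a member's FPKM could not be given.

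The members varied more between replicates than other adult transcripts did. The median coefficient of variation (CV, the SD as a percent of the mean over 3 samples) was 27.5% in adult heart and 24.98% in adult muscle for the members, against 13.2% and 12.3% for the 2574 other transcripts. A CV above 50% was found for 5 members in adult heart and 11 in adult muscle. Of the other transcripts, 3.65% in adult heart and 3.15% in adult muscle had such a CV. Among the more abundant transcripts, which were not matched in level, the contrast was also present. With an adult mean above 100 FPKM, the median CV was 29.1% in adult heart and 28.5% in adult muscle for 20 members. For 603 others it was 16.7% and 12.3%. Among transcripts with an adult mean above 1000 FPKM, the median CV was 43.5% in adult heart and 45.9% in adult muscle for the 6 members, against 19.9% and 11.4% for 132 others. These are descriptions, since the rule used the same adult values.

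By median, members listed at 0 in the embryo were the more variable ones. This split counts the 4 members that stayed below 0.01 FPKM with those above 0. Their median CV was 37.5% in adult heart and 46.6% in adult muscle (19 members), against 16.4% and 21.2% for the 22 members above 0 in at least 1 embryonic sample. All 5 members with a CV above 50% in adult heart were listed at 0 in the embryo, as were 7 of the 11 in adult muscle. The highest value exceeded the lowest more than 2-fold in 13 members in adult heart and 18 in adult muscle. A CV below 20% in both adult tissues was found for 9 members, 8 of which were above 0 in at least 1 embryonic sample. The 19 members at 0 also had higher levels. Their median of mean FPKM was 94.9 in adult heart and 224 in adult muscle, against 33.8 and 52.7 for the 22. The rule used the embryonic values behind this split, and it was not made for other transcripts, so it is a description only.

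**Figure D2:**
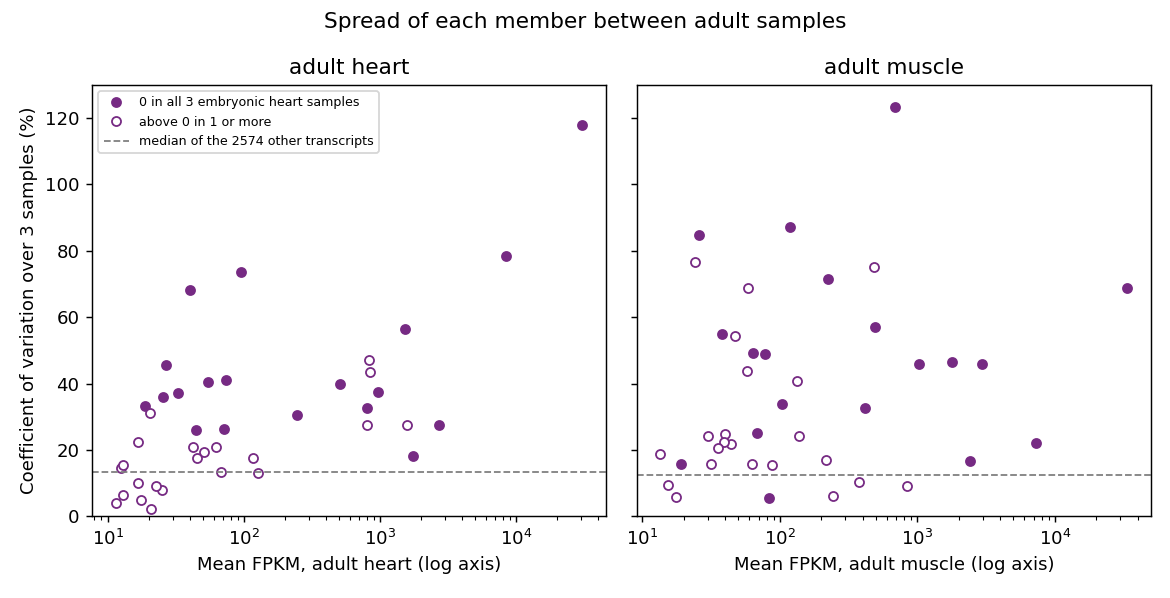
The coefficient of variation over the 3 samples of a tissue (vertical axis, %) is plotted against the mean FPKM (log axis) for each of the 41 members, in adult heart (left) and adult muscle (right). Filled points are the 19 members listed at 0 in all 3 embryonic heart samples, open points the other 22, and the dashed line is the median of the 2574 other transcripts. The median is 37.5% in adult heart and 46.6% in adult muscle for the filled points, and 16.4% and 21.2% for the open points.

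The steadiest members in adult heart were TCONS_00039526, with 21.3, 20.4 and 21.0 FPKM, and TCONS_00052885, with 11.8, 11.6 and 10.9 FPKM. In adult muscle they were TCONS_00034658, with 88.4, 81.4 and 79.9 FPKM, and TCONS_00034953, with 17.1, 18.9 and 17.0 FPKM. The largest CVs were 118% for TCONS_00065808 and 78.4% for TCONS_00079586 in adult heart, and 123% for TCONS_00005312 and 87.2% for TCONS_00079730 in adult muscle. TCONS_00005312 had 742, 378 and 407 FPKM in adult heart and 1675, 251 and 147 FPKM in adult muscle. Muscle replicate 0 alone lay above the heart samples. TCONS_00079730 had 32.6, 76.9 and 55.1 FPKM in adult heart and 29.0, 95.5 and 233 FPKM in adult muscle, so that the muscle samples spanned the heart samples on both sides.

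The rule did not use the difference between adult heart and adult muscle, so the members could be tested for it. It did ask for more than 10 FPKM in each adult sample, which cuts off low replicates of members near that floor. Transcripts were compared with limma on log2(FPKM + 0.1), two-sided, with all 9 samples in the fit, and Benjamini-Hochberg adjustment over 69118 transcripts. A call required an adjusted p below 0.05 together with means that differed more than 2-fold. Embryonic heart samples also entered the estimate of spread, and the rule had limited the members' values in them. The SEs and p-values of the members thus partly depend on the rule, through the adult floor and the embryonic limit. Of the backgrounds given next, only that of the 2615 adult-abundant transcripts shares the adult floor. Of the 41 members, 4 (9.76%) were called higher in adult heart, where the background over all transcripts tested was 9.6% and that of the 2615 adult-abundant transcripts 9.25%. Called higher in adult muscle were 9 members (22.0%), with backgrounds of 11.1% and 14.5%. In either direction it was 13 members (31.7%), with backgrounds of 20.7% and 23.8%. The share higher in heart was near its background, and the share higher in muscle lay above it by a few members. A fit of the adult tissues alone called 4 members higher in adult heart and 8 higher in adult muscle.

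The remaining 28 members were not called. On adjusted p below 0.05 alone, 5 members were higher in heart and 11 in muscle, against 7130 and 8296 of all 69118 transcripts. Some uncalled members thus missed only the 2-fold limit. All heart samples lay above all muscle samples for 5 of the 41 members. The backgrounds were 20.8% over all transcripts and 25.4% over the adult-abundant ones, and the members' share was below both. All muscle samples lay above all heart samples for 15 of the 41. Here the backgrounds were 21.7% and 35.8%, and the members' share was above the first and close to the second. The median log2 fold change of adult heart over adult muscle was -0.44 for the members and -0.14 for the adult-abundant transcripts. By embryonic listing, 0 of the 19 members at 0 were called higher in heart and 2 higher in muscle, and of the other 22, 4 and 7 were called. The 19 members also had the larger spread between replicates by median, and the 22 again include the 4 that stayed below 0.01 FPKM. The embryonic values that define this split also entered the estimate of spread behind the calls. The split was not counted for other transcripts, and the members called higher in heart include some with close numbers. These counts are thus a description, and a difference by embryonic listing was not tested. Of the 13 calls, 10 held under all 18 refits with other settings or without 1 sample. Of the 28 uncalled members, 9 were called in at least 1 of these refits. Leaving out adult muscle replicate 0 moved the count higher in adult heart from 4 to 7 members.

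**Figure D3:**
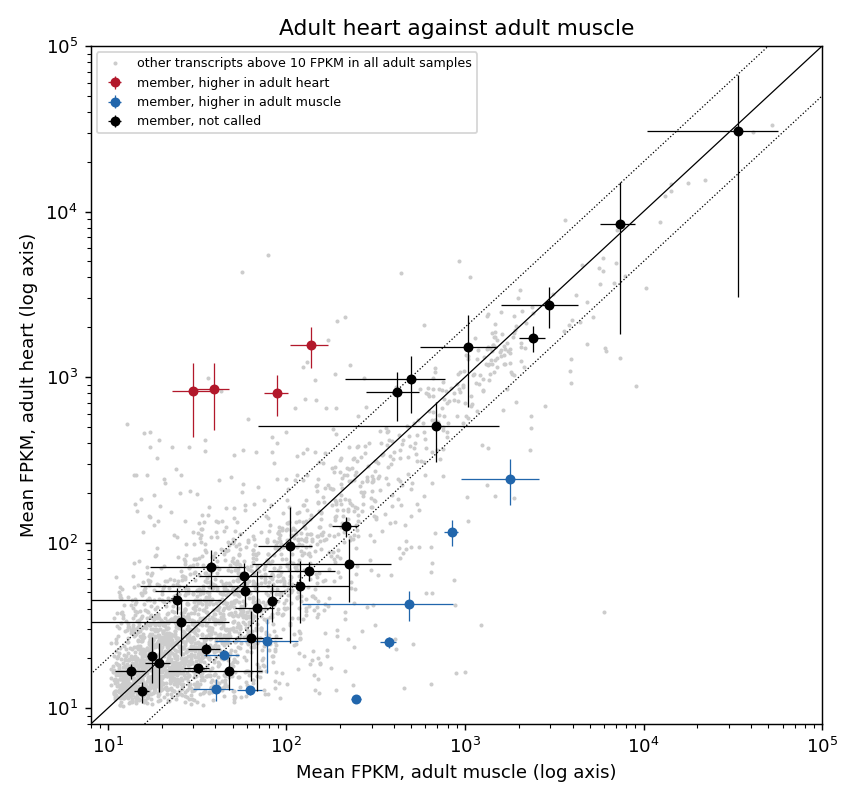
Mean FPKM in adult heart (vertical) is plotted against mean FPKM in adult muscle (horizontal), both on log axes, with bars of 1 SD over 3 samples (a bar reaching below 0 is drawn shortened) for the members and grey dots for the 2574 other adult-abundant transcripts. The solid line marks equal means and the dotted lines a ratio of 2. The 4 members called higher in adult heart stand together above the line, at 802 to 1572 FPKM in heart, and the 9 called higher in muscle lie below it.

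The 4 members higher in adult heart were of similar level, and 3 of them had numbers close to each other. These 3 lie from TCONS_00073462 to TCONS_00073469. TCONS_00071059 stands apart from them in number, which does not show how far apart they lie on the genome. All 4 numbers lie between numbers of lincRNAs listed on chromosome 3 of Zv9. The numbers of the assembly follow the order of the Zv9 sequences, since the 813 listed lincRNAs lie on 66 sequences and change sequence 65 times along the numbers. Only the chromosome is thus inferred from the number, and the coordinates of the members are not given in the sources used here.

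TCONS_00071059 had 1271, 567 and 637 FPKM in adult heart replicates 0, 1 and 2, 32.1, 36.0 and 21.9 FPKM in adult muscle, and 0.424, 0.0758 and 0.324 FPKM in embryonic heart. Its log2 fold change of adult heart over adult muscle was 4.71 (SE 0.45, Benjamini-Hochberg adjusted p = 0.000122 from limma), a 27.5-fold ratio of means. TCONS_00073462 had nearly the same values, with 1267, 577 and 698 FPKM in adult heart, 40.9, 47.0 and 29.7 FPKM in adult muscle, and 0.428, 0.110 and 0.286 FPKM in embryonic heart. It was 21.6-fold higher in heart (log2 fold change 4.37, SE 0.40, adjusted p = 8.46e-05, same test). Profiles this similar can arise when reads are split between near-identical copies, and whether these are copies is not known here, so the values of each alone are uncertain.

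TCONS_00073465 had 2070, 1271 and 1375 FPKM in adult heart, 115, 177 and 123 FPKM in adult muscle, and at most 0.00841 FPKM in embryonic heart. Its heart level was 11.4-fold that of muscle (log2 fold change 3.50, SE 0.23, adjusted p = 1.27e-05, same test). TCONS_00073469 had 1057, 662 and 687 FPKM in adult heart, 80.1, 104 and 80.6 FPKM in adult muscle, and 0.382, 0.144 and 0.458 FPKM in embryonic heart. It was 9.09-fold higher in heart (log2 fold change 3.16, SE 0.32, adjusted p = 0.000173, same test). In all 4 members every heart sample lay above every muscle sample and adult heart replicate 0 was the highest. The calls held under all 18 refits, including those without that sample.

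Near-numbered entries showed the same adult pattern without meeting the embryonic limit, or the opposite one. TCONS_00071060 had 5783, 3201 and 3749 FPKM in adult heart, 371, 541 and 395 FPKM in adult muscle, and 1.48, 0.824 and 1.67 FPKM in embryonic heart, and failed the rule on its embryonic values. TCONS_00071062 (mean 1675 FPKM in adult heart, 170 FPKM in adult muscle and 0.602 FPKM in embryonic heart) and TCONS_00073464 (2294, 212 and 0.444 FPKM in the same order) failed it likewise. TCONS_00073466 failed on its adult muscle values, with a mean of 3.74 FPKM there against 40.5 FPKM in adult heart. These entries and the 4 members make 8 of 8 with adult heart replicate 0 as the highest sample, and their ratios of heart over muscle ranged from 9.09 to 27.5.

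The entries high in embryonic heart had numbers close to these. TCONS_00073474 had 4.51, 2.97 and 3.43 FPKM in adult heart, 1.56, 0.667 and 1.80 FPKM in adult muscle, and 5269, 2144 and 1989 FPKM in embryonic heart. TCONS_00071064 was at most 0.314 FPKM in the adult samples and had 376, 158 and 375 FPKM in embryonic heart. TCONS_00073472 was at most 0.0445 FPKM in the adult samples and had 130, 54.6 and 67.4 FPKM in embryonic heart. Both of these are among the 30 transcripts of the mirror-image rule, and they were the only 2 of the 30 within 5 numbers of a member. Counted by member, 2 of 41 (4.88%) had such a transcript within 5 numbers, against 18 of the 2615 adult-abundant transcripts (0.688%). The 18 include these 2 members and other entries of the same stretches, such as TCONS_00071060 and TCONS_00071062. Both rules also use the same FPKM values, so the shares are not independent and are a description only. In these stretches of numbers, 11 of 19 entries had a mean above 10 FPKM in either heart, of which 8 were higher in adult heart and the other 3 in embryonic heart. These entries were chosen for description after their values were seen.

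**Figure D4:**
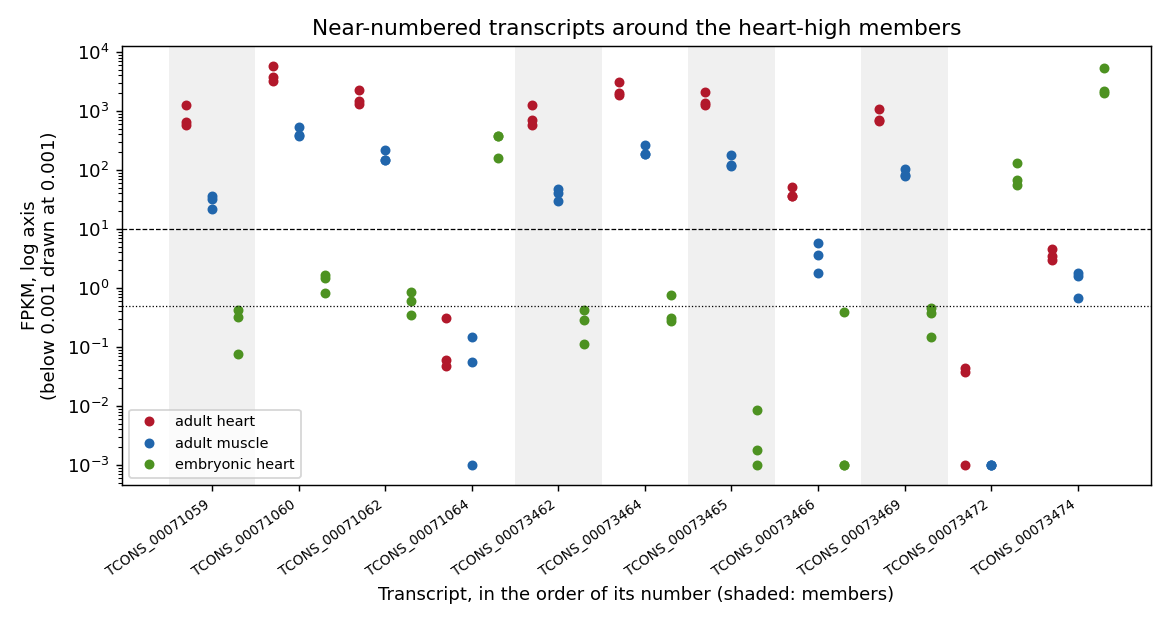
FPKM on a log axis in each sample for the 11 entries above 10 FPKM in either heart of the stretches of numbers around the 4 heart-high members, in number order (red, adult heart; blue, adult muscle; green, embryonic heart; shaded columns, members; lines at 10 and 0.5 FPKM). In 8 entries adult heart is the highest tissue, and in TCONS_00071064, TCONS_00073472 and TCONS_00073474 the embryonic points lie above all adult points.

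The members higher in adult muscle were spread over the assembly. The largest ratios among them were those of a pair of consecutive numbers, bracketed by lincRNAs of chromosome 21. TCONS_00052885 had 11.8, 11.6 and 10.9 FPKM in adult heart, 235, 239 and 263 FPKM in adult muscle, and 0.257, 0.183 and 0.288 FPKM in embryonic heart. Its level in muscle was 21.5-fold that in heart (log2 fold change of heart over muscle -4.41, SE 0.17, Benjamini-Hochberg adjusted p = 6.27e-07 from limma). Its heart values lay just above the adult limit of the rule, which may have limited their spread. TCONS_00052886 had 26.3, 26.1 and 22.8 FPKM in adult heart, 342, 364 and 418 FPKM in adult muscle, and 0.357, 0.0596 and 0.0322 FPKM in embryonic heart. It was 14.9-fold higher in muscle (log2 fold change -3.89, SE 0.41, adjusted p = 0.000198, same test). The next entry, TCONS_00052887, was lower in level and had the same order, with means of 4.93 FPKM in adult heart, 44.8 FPKM in adult muscle and 0.0857 FPKM in embryonic heart. Transcripts of 1 gene share reads, and whether the pair belongs to 1 gene is not known here.

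TCONS_00009350 had 139, 101 and 108 FPKM in adult heart, 775, 821 and 927 FPKM in adult muscle, and 0.240, 0.488 and 0.259 FPKM in embryonic heart. Its ratio of muscle over heart was 7.24 (log2 fold change of heart over muscle -2.87, SE 0.23, adjusted p = 4.41e-05, same test). The entry after it, TCONS_00009351, had similar values in the adult tissues and an embryonic maximum of 1.09 FPKM, and so was no member. TCONS_00074030 had 253, 313 and 165 FPKM in adult heart and 1977, 2489 and 868 FPKM in adult muscle, and was listed at 0 in embryonic heart (log2 fold change -2.78, SE 0.38, adjusted p = 0.000946, same test). Of the 6 members with a mean over the 6 adult samples above 1000 FPKM it was the only one called, with every muscle sample above every heart sample. TCONS_00036320 had 43.0, 50.9 and 33.3 FPKM in adult heart, 894, 186 and 382 FPKM in adult muscle and at most 0.446 FPKM in embryonic heart (log2 fold change -3.25, SE 0.60, adjusted p = 0.00493, same test). Its muscle samples differed by more than 4-fold and all lay above the heart samples.

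The other 4 members called higher in muscle had smaller ratios or less stable calls. TCONS_00065422 had 10.7, 14.6 and 13.6 FPKM in adult heart and 38.9, 30.8 and 50.6 FPKM in adult muscle (log2 fold change -1.60, SE 0.31, adjusted p = 0.00562, same test). TCONS_00039526, steady in heart, had 55.6, 37.9 and 39.8 FPKM in muscle (log2 fold change -1.06, SE 0.23, adjusted p = 0.0113, same test), and was called in 15 of 18 refits. Without adult muscle replicate 0 its ratio fell below 2. TCONS_00028618 and TCONS_00086453 are named as the rest of the called members, after their values were seen. TCONS_00028618 had 12.03, 13.7 and 12.9 FPKM in adult heart and 51.5, 67.3 and 69.8 FPKM in adult muscle, and was called in 17 of 18 refits (log2 fold change -2.27, SE 0.49, adjusted p = 0.0104, same test). TCONS_00086453 had 17.5, 23.7 and 35.6 FPKM in adult heart and 94.3, 34.5 and 106 FPKM in adult muscle (log2 fold change -1.51, SE 0.43, adjusted p = 0.0352, same test). Its groups overlapped, and it was called in 10 of 18 refits. The call was lost without adult heart replicate 0 (adjusted p = 0.112) or 1 (adjusted p = 0.0996) and without adult muscle replicate 0 (adjusted p = 0.118) or 2 (adjusted p = 0.122). It was also lost with no filter on low values (adjusted p = 0.0815), no intensity trend (adjusted p = 0.0558), a fit of the adult tissues alone (adjusted p = 0.0608) and quantile normalization (adjusted p = 0.0676).

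Members nearest to equal levels in the adult tissues were TCONS_00020600, TCONS_00001740 and TCONS_00041254, with log2 fold changes of 0.02 (SE 0.46), -0.03 (SE 0.36) and -0.09 (SE 0.27). TCONS_00020600 had 61.7, 42.4 and 48.5 FPKM in adult heart and 103, 24.0 and 48.7 FPKM in adult muscle, with an embryonic maximum of 0.0442 FPKM. TCONS_00041254 had 18.5, 25.01 and 12.5 FPKM in adult heart and 16.8, 18.3 and 22.7 FPKM in adult muscle, and was listed at 0 in embryonic heart. Differences well above 1 SE could also go uncalled. TCONS_00049636, described above, was not called at a log2 fold change of -0.48 with an SE of 0.18. Its ratio of muscle over heart was 1.39, so it missed the 2-fold limit as well as the limit on adjusted p. TCONS_00005312, TCONS_00069189 and TCONS_00079831, not called, were called higher in adult heart without adult muscle replicate 0 (adjusted p = 0.0330, 0.00188 and 0.0127, same test).

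An entry of neighbouring number that was abundant in the embryo was less frequent for members than for adult-abundant transcripts. Within 5 numbers, 12 of 41 members (29.3%) had a transcript above 10 FPKM in all 3 embryonic heart samples, against 1294 of the 2615 adult-abundant transcripts (49.5%). With the next number only, it was 1 member (2.44%, against 21.3%). The rule kept members below 0.5 FPKM in embryonic heart, while 1975 of the 2615 were above 10 FPKM in all 3 embryonic samples. Neighbouring numbers can be transcripts of 1 gene, so these shares are not independent of the rule and are a description only. The 1 member with such a next number is named here. That member was TCONS_00034953, with 21.9, 13.6 and 26.2 FPKM in adult heart, 17.1, 18.9 and 17.0 FPKM in adult muscle and at most 0.385 FPKM in embryonic heart. TCONS_00034954 had a mean of 231 FPKM in adult heart, 300.1 FPKM in adult muscle and 36.6 FPKM in embryonic heart. Members with the most abundant embryonic neighbours were TCONS_00079730, TCONS_00073469 and TCONS_00054704. TCONS_00054704 had 73.9, 57.3 and 72.1 FPKM in adult heart, 196, 101 and 103 FPKM in adult muscle and 0.179, 0.422 and 0.323 FPKM in embryonic heart, while TCONS_00054708 was at 1228 to 1746 FPKM in adult heart, 1426 to 1681 FPKM in adult muscle and 1279 to 1859 FPKM in embryonic heart. A number close by does not show that 2 entries belong to 1 gene.

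By the same reading of numbers, 33 of the 41 members were bracketed by lincRNAs of a single Zv9 sequence, on 15 chromosomes. Chromosomes 3 and 21 had 6 members each. The other 8 members lay between lincRNAs of different sequences, and 9 members were within 10 numbers of another member. The same shares were not counted for other transcripts, so these counts do not show a concentration of members.

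The values on either side of the limits show how the rule selected. Just inside the embryonic limit were TCONS_00009350 at a maximum of 0.488 FPKM and TCONS_00073469 at 0.458 FPKM, and just outside were TCONS_00072142 at 0.644 FPKM and TCONS_00067121 at 0.679 FPKM. TCONS_00067121 had 13.5 to 21.0 FPKM in adult heart and 772 to 1233 FPKM in adult muscle, a larger ratio of muscle over heart than that of any member. Just inside the adult limit were TCONS_00065422 at a minimum of 10.7 FPKM and TCONS_00052885 at 10.9 FPKM, and just outside were TCONS_00069313 at 9.70 FPKM and TCONS_00005313 at 9.57 FPKM. TCONS_00005313 is the next number after the member TCONS_00005312 and was, like it, listed at 0 in embryonic heart, with 9.57, 28.7 and 23.5 FPKM in adult heart and 66.4, 38.8 and 34.9 FPKM in adult muscle.

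The transcripts whose log2 values followed TCONS_00065808 most closely over the 9 samples were not members. They were TCONS_00054975 (r = 0.996), TCONS_00061022 (r = 0.996) and TCONS_00049637 (r = 0.996), all 3 listed at 0 in every embryonic heart sample. TCONS_00054975 averaged 2.08 FPKM in adult heart and 2.40 FPKM in adult muscle, TCONS_00061022 averaged 0.210 and 0.194 FPKM, and TCONS_00049637, next in number to the member TCONS_00049636, averaged 8.001 and 6.64 FPKM. The 9 points behind each r share the contrast between 6 adult values above 0 and 3 embryonic zeros.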

How the data were processed

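RNA was sequenced as 50-bp paired-end reads in 9 samples. The authors aligned reads with TopHat 2.0.12 to Zv9, assembled transcripts with Cufflinks 2.2.1 and deposited FPKM values per transcript and sample from Cuffnorm. The scaling option is not given in the sources used here. Members were picked by thresholds on the deposited FPKM values. Groups came from the sample labels. The members, the lists and the tests were chosen with earlier results of these data known. Adult heart was compared with adult muscle with limma 3.58.1 in R 4.3.3 on log2(FPKM + 0.1) with an intensity trend, over the 69118 transcripts with a mean above 0.1 FPKM in at least 1 tissue. The fit was tested on simulated data. Named are the 8 members with the highest adult mean, the 5 largest called differences without overlap in each direction, the 3 nearest 0, those at the limits, consecutive numbers, the 3 with the most abundant embryonic neighbours, and the extremes of spread. Alternatives were other thresholds, pseudocounts (1 and 0.01), filters, rescaling, quantile normalization, no trend, 2 tissues only, a replicate block, and each sample left out. Depth per sample is unknown beyond the relative estimate. Other calculations used Python 3.11.15, pandas 2.3.3 and numpy 2.4.6.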

Additional observations from a re-analysis of the deposited data

How the results depend on the processing

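The rule found 63 transcripts with an adult limit of 5 FPKM, 27 with 20 FPKM, 19 with embryonic values of 0 in each sample, 111 on group means, and 41 to 50 without 1 sample. Rescaling by median ratios moved adult heart by 0.287 on the log2 scale relative to embryonic heart and by -0.03 relative to adult muscle. It divided adult values by 1.40 to 1.46 and embryonic values by 1.15 to 1.18, so the fixed limits stood higher on the deposited scale. Median-ratio rescaling left 30 members and quantile normalization left 38, all among the 41. Without 1 sample, 4 to 7 members were called higher in adult heart (7 without adult muscle replicate 0) and 8 to 10 higher in adult muscle, and 11214 to 14542 transcripts were called in all, against 14301 with every sample. An adjusted p below 0.01 called 8724, and non-overlap with a ratio above 2, without a test, 23761. Counts of members with an abundant embryonic neighbour were 1 within 1 number, 20 within 10 numbers, and 27 at a limit of 1 FPKM. With quantile normalization the log2 fold changes of TCONS_00001740 and TCONS_00041254 were 0.27 and 0.050, and their signs turned. Without 1 sample, uncalled log2 fold changes also turned sign. They ranged from -0.46 to 0.28 for TCONS_00001740, -0.42 to 1.34 for TCONS_00005312, -0.49 to 0.55 for TCONS_00020600, -0.031 to 0.44 for TCONS_00034953, -0.32 to 0.17 for TCONS_00041254, -1.44 to 0.33 for TCONS_00065808, and -0.84 to 0.61 for TCONS_00079586. The cause was not tested.

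A replicate block called 4 members higher in adult heart and 10 higher in adult muscle, 12886 transcripts in all. The correlation of deviations between same-numbered adult heart and adult muscle samples was -0.016 to 0.071, against -0.060 to 0.068 for different numbers. Between the 2 hearts it was 0.0005 to 0.0432, against -0.0436 to 0.0226. Between adult muscle and embryonic heart it was 0.0131 to 0.0136, against -0.0099 to -0.0036. Values this small do not decide whether the numbers pair the samples.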
